A study of Rattus norvegicus with 10 samples.

Results

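The genes described here encode voltage-gated potassium (Kv) channels of the Kv1 family and the subunits around them: the pore-forming Kv1 alpha subunits Kcna1, Kcna2, Kcna4 and Kcna6, the cytoplasmic beta subunits Kcnab1 and Kcnab2, the Kv2 subunit Kcnb2, and the silent Kv9 subunits Kcns1 and Kcns3. They were taken by gene name from the table of estimated counts, where 8 of the 9 names had a row, out of 30560 genes in all. Kcnb2 had no row under that name and was not analysed here. All 8 passed the filter on low counts, with between 171 and 10683 estimated counts per gene and library.

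The libraries came from L6 dorsal root ganglia, which hold the cell bodies of sensory neurons, of Sprague Dawley rats 7 to 8 weeks old. Every rat carried an intrathecal catheter at the lumbar level and received meloxicam for analgesia after surgery and again at dosing. Dosing through the catheter followed 5 days after surgery, in 30 to 45 µL, with phosphate-buffered saline (PBS, dose 0 mg, 5 samples) or with 0.75 mg of SCN9A_2544, a small interfering RNA against the sodium channel gene Scn9a (5 samples). The timepoint of all 10 samples is 14 days, with no statement of what it is counted from. None of the 10 samples was given a non-targeting siRNA, so effects of less Scn9a and of giving any siRNA cannot be told apart. RNA was measured in bulk, so fewer cells of a type and less RNA per cell cannot be told apart in any value below.

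Kv1 channels open at small depolarisations and let potassium out, which holds back firing. In myelinated axons channels of Kv1.1 and Kv1.2 sit beside the node of Ranvier under the myelin, held there by the adhesion proteins Caspr2 and contactin-2. Kv1.4 inactivates fast and is known from small, unmyelinated sensory neurons. Beta subunits bind the inner face of Kv1 channels, and silent Kv9 subunits form no channel alone but join Kv2 subunits and change their gating. In rats, loss of Kv1.2 and of Kcns1 expression in sensory neurons after nerve injury has been described.

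The upstream sequences of 2 of the pore-forming genes are shown because Kcna2 had the flattest and Kcna4 a steeper slope against the neuronal content of a library, a difference that did not pass by rank, as described further on. They are the 250 bases before a RefSeq transcript start, build GRCr8, which is not the build named for the counts, written 5′ to 3′ on the strand of the gene. Capitals mark GGGCGG on either strand.
Kcna2, chr2:197393280-197393529, plus strand: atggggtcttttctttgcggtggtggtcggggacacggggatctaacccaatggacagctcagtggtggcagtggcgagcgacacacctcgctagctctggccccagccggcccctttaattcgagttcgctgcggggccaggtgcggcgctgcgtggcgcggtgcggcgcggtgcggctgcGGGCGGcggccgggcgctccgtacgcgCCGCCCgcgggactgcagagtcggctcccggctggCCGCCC
Kcna4, chr3:114215086-114215335, plus strand: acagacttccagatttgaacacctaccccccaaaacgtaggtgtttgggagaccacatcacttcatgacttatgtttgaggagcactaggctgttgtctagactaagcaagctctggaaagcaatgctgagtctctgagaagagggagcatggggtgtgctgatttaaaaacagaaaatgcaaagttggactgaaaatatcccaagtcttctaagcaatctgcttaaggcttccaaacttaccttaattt
The Kcna2 window was 72.4% G or C with 33 CG pairs, more pairs than in 96.4% of the 33469 windows in the table. The Kcna4 window was 42.8% G or C and held 1 CG pair, and 7.83% of all windows had fewer. GGGCGG, counted on both strands, stood 3 times in the Kcna2 window and 0 times in that of Kcna4, and 30.5% of all windows held it at least 1 time. TATAAA on either strand and TGANTCA, which reads the same on both strands, were in none of the 8 windows of the 7 genes that had one, against 12.9% and 6.34% of all windows. Of the other genes with a window, Kcna6 (slope 1.07) had 3 CG pairs, Kcnab1 (0.78) 7, Kcnab2 (1.15) 24 and Kcns1 (1.34) 18. Kcns3 (1.19), with 2 starts, had 11 and 27. Steep slopes thus occurred with few and with many CG pairs, and a relation between the 2 was not tested. On the same assembly Kcna1 lies between Kcna5 and Kcna6 in the order of protein-coding genes on chromosome 4, and Kcna2 lies between Kcna3 and Kcna10 on chromosome 2.

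Library totals ran from 11832376 to 15420006 estimated counts. The siRNA target itself went with the labels: Scn9a (ENSRNOG00000006639) ranged from 132 to 257 CPM (counts relative to the TMM-scaled library total) in PBS ganglia and from 44.6 to 103 CPM in treated ganglia, with no overlap. Its edgeR log2 fold change was -1.03, with an adjusted p of 0.963 over all genes and of 0.0325 when the pan-neuronal mean was a covariate. All 20 pan-neuronal markers were detected in every library, and their summed level ran from 17983 to 41006 CPM in PBS and from 14476 to 39009 CPM in treated ganglia. The lowest means over these markers belonged to SCN9A_2544 replicate 3, PBS replicate 3 and PBS replicate 5, which also had the highest means of 20 Schwann cell and myelin markers. That Schwann cell and myelin list summed to between 15490 and 70745 CPM in PBS and between 15963 and 76389 CPM in treated ganglia, with 0 of its markers at 0 in any library. A list of 12 markers of central glia summed to between 65.2 and 283 CPM in PBS and between 128 and 516 CPM in treated ganglia. Of these 12 markers 5 passed the filter, namely Gfap, Cldn11, Mag, Hapln2 and Ermn. Over the 10 libraries Gfap ran from 17.5 to 150 CPM and Cldn11 from 9.98 to 85.5 CPM. Mag, which is also in the Schwann cell and myelin list, ran from 23.7 to 322 CPM. Mog, Opalin, Olig1, Olig2 and Slc1a2 were at 0 in at least 1 library.

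The 8 genes were compared between ganglia of rats given the siRNA and of rats given PBS. None of the 8 genes changed past the threshold, and the treated and PBS libraries overlapped for every one. edgeR's quasi-likelihood test called 0 of the 8 at an adjusted p of 0.05, where it called 0% of the 15186 genes tested. At an unadjusted p under 0.05 it placed 0 of the 8, where it placed 4.23% of all genes (642). DESeq2 called 0 of the 8, where it called 17 genes (0.095%), and limma voom with library weights called 0 of the 8, where it called 1 gene (0.00659%). At an unadjusted p under 0.05 limma voom placed 1 of the 8, Kcna6, where it placed 20.9% of all genes. The groups failed to overlap for 0 of the 8, where 0.665% of all genes did so. Of the 8 log2 fold changes 6 lay above 0 and 2 below, with a median of 0.11 (all genes tested 0.02, with 53.4% above 0). Of the 20 pan-neuronal genes 15 lay above 0, with a median of 0.09.

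Kcna1 (ENSRNOG00000064052) encodes Kv1.1, a pore-forming subunit of axonal Kv1 channels. In PBS replicates 1 to 5 it stood at 664, 711, 478, 764 and 609 CPM. In SCN9A_2544 replicates 1 to 5 it stood at 765, 727, 360.2, 455 and 673 CPM. Treated replicates 3 and 4 lay below all PBS libraries, and the other treated libraries lay among or just above them. Group means were 645 ± 109.6 and 596 ± 178 CPM (SD, n = 5 each). The log2 fold change was -0.11 (SE 0.22, 95% interval -0.61 to 0.38, edgeR adjusted p = 0.977), which is -7.64% with an interval from -34.3% to 29.8%.

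Kcna2 (ENSRNOG00000018285) encodes Kv1.2, the usual partner of Kv1.1 in the same channels. Its PBS libraries stood at 572, 539.7, 402, 541 and 466 CPM. The treated ones stood at 591, 622, 343, 391 and 461 CPM. Here too treated replicates 3 and 4 were the lowest of all 10 libraries, while treated replicates 1 and 2 were the highest. Group means were 504 ± 69.3 and 481 ± 122 CPM (SD, n = 5 each). The log2 fold change was -0.07 (SE 0.19, interval -0.48 to 0.35, adjusted p = 0.988), the narrowest interval among the 8. In rats an antisense RNA to Kcna2 has been described in sensory neurons. Whether the counting used strand is not given in the sources used here, so reads from Kcna2 and from an antisense partner cannot be told apart in these values.

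Kcna4 (ENSRNOG00000004918) encodes Kv1.4, the fast-inactivating A-type member of the family. PBS libraries held 33.4, 26.1, 12.01, 30.7 and 16.9 CPM. Treated libraries held 29.3, 31.4, 11.6, 32.2 and 29.0 CPM. The 3 low values were those of the 3 libraries with the lowest pan-neuronal mean, and the other 7 lay close together from 26.1 to 33.4 CPM. Group means were 23.8 ± 9.09 and 26.7 ± 8.54 CPM (SD, n = 5 each). The log2 fold change was 0.17 (SE 0.32, interval -0.53 to 0.86, adjusted p = 0.976).

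Kcna6 (ENSRNOG00000052486) encodes Kv1.6, a further delayed-rectifier subunit of the family. Its PBS values were 131, 105, 58.3, 184 and 80.2 CPM. Its treated values were 144, 163, 66.1, 163 and 144 CPM. The treated libraries other than replicate 3 lay above every PBS library except replicate 4, which was the highest of all. Group means were 112 ± 48.8 and 136 ± 40.2 CPM (SD, n = 5 each). Its log2 fold change was 0.28 (SE 0.31, interval -0.40 to 0.97, adjusted p = 0.975). With 1 library left out it ran from 0.12, without PBS replicate 3, to 0.54, without PBS replicate 4.

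The beta subunits are related to aldo-keto reductases, and Kvβ1, from Kcnab1, can also give Kv1 channels fast inactivation. Kcnab1 (ENSRNOG00000056697) stood at 123, 94.2, 99.3, 113 and 64.4 CPM in PBS replicates 1 to 5. Under treatment it stood at 132, 113, 44.3, 111 and 117 CPM. Apart from replicate 3, treated libraries lay between 111 and 132 CPM. Means were 98.7 ± 22.2 CPM with PBS and 103 ± 34.0 CPM with the siRNA (SD, n = 5 each). The log2 fold change of Kcnab1 was 0.07 (SE 0.27, interval -0.51 to 0.65, adjusted p = 0.991). Kcnab2 (ENSRNOG00000011550), encoding Kvβ2, stood at 215, 247, 115, 314 and 131 CPM in PBS ganglia. Treated ganglia had 299, 267, 99.6, 194 and 343 CPM of Kcnab2. PBS libraries thus spanned 115 to 314 CPM and treated ones 99.6 to 343 CPM, so the PBS range lay inside the treated range, with means of 205 ± 82.8 and 241 ± 95.9 CPM (SD, n = 5 each). Its log2 fold change was 0.23 (SE 0.35, interval -0.52 to 0.99, adjusted p = 0.975).

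Kcns1 (ENSRNOG00000013681) encodes Kv9.1, a silent subunit of myelinated sensory neurons, and varied most of the 8 genes. PBS replicates held 82.8, 76.1, 21.7, 137 and 56.5 CPM. Treated replicates held 117, 135, 42.7, 41.7 and 78.1 CPM. From the lowest to the highest library it spanned 6.29-fold on the log2 CPM scale, against 1.81-fold for Kcna2. Group means were 74.9 ± 42.2 and 82.8 ± 42.4 CPM (SD, n = 5 each). The log2 fold change of Kcns1 was 0.15 (SE 0.45, interval -0.84 to 1.13, adjusted p = 0.988). Kcns3 (ENSRNOG00000004899), encoding Kv9.3, held 90.2, 50.5, 38.9, 83.0 and 41.6 CPM in PBS ganglia. With SCN9A_2544 it held 75.3, 87.7, 21.9, 70.0 and 58.7 CPM. The group means of Kcns3, 60.8 ± 24.1 and 62.7 ± 25.1 CPM (SD, n = 5 each), lay within a small part of that spread. Its log2 fold change was 0.04 (SE 0.35, interval -0.72 to 0.81, adjusted p = 0.996).

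**Figure D1:**
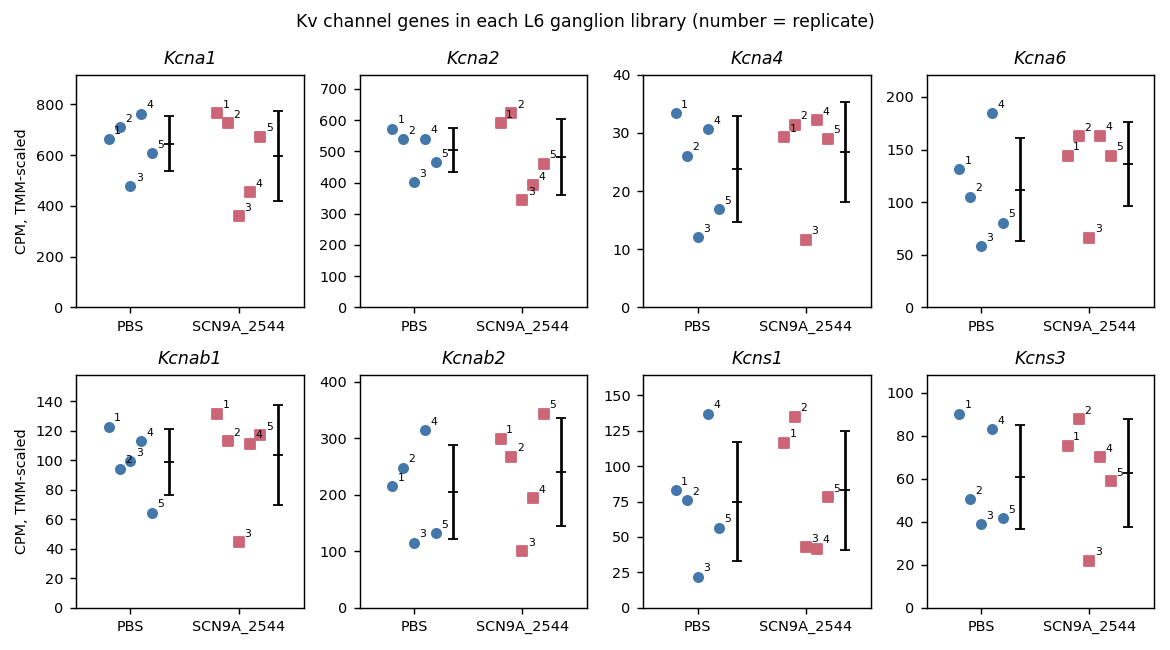
CPM of each of the 8 genes in every library, with PBS as circles, SCN9A_2544 as squares, the replicate number beside each point, and the mean with its SD (n = 5 per group) as a bar. The groups overlap for all 8 genes, and replicate 3 of the treated group is the lowest treated library for 7 of them, Kcns1 being the exception, where replicate 4 is lower at 41.7 against 42.7 CPM.

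The intervals bound how large an effect these libraries could hide. For Scn9a the estimate was -51.1%, while the lower ends of the 95% intervals for the 8 potassium channel genes ran from -24.3% for Kcna6 to -44.0% for Kcns1. Each of these intervals, taken gene by gene and without adjustment, thus left out a fall as large as the estimate for Scn9a. Upper ends ran from 27.4% for Kcna2 to 119% for Kcns1. The interval of Scn9a itself ran from -66.4% to -28.9%, and the lower ends of all 8 genes but Kcna2 and Kcna6 lay within it. Differences of single genes on the log2 CPM scale gave two-sided exact permutation p-values from 0.413 for Kcna6 to 0.992 for Kcnab1, where the smallest that 5 against 5 allows is 0.00794.

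The intervals were narrower when the cell composition of the libraries was in the model, by neuronal or by Schwann cell and myelin content. With the mean of the 20 pan-neuronal genes in the model the SE of Kcna4 was 0.11 in place of 0.32, that of Kcna6 0.11 in place of 0.31, and that of Kcnab2 0.14 in place of 0.35. With the Schwann cell and myelin mean in its place these SEs were 0.16, 0.17 and 0.22. With a block for the replicate number instead of either mean they were 0.17, 0.17 and 0.26. In the fit with the pan-neuronal mean Kcna6 had a log2 fold change of 0.21 (interval -0.03 to 0.45) and Kcna1 one of -0.21 (interval -0.48 to 0.05). Their adjusted p-values were 0.559 and 0.574, and 0 of the 8 genes had an unadjusted p under 0.05, where 9.5% of all genes had one in that fit. Signs turned for Kcnab1, to -0.09, and for Kcns3, to -0.13.

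**Figure D2:**
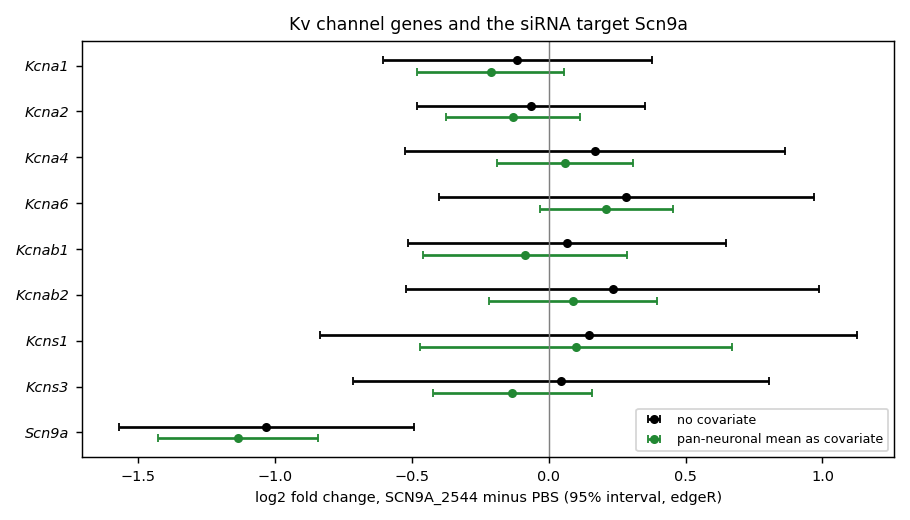
edgeR log2 fold changes (SCN9A_2544 minus PBS, points) with 95% intervals (bars) for the 8 genes and for Scn9a, unadjusted in black and adjusted for pan-neuronal content in green. All 16 intervals of the potassium channel genes cross 0, while those of Scn9a lie from -1.57 to -0.49 and from -1.43 to -0.84.

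Every one of the 8 genes was higher in libraries with a higher pan-neuronal mean, over 10 libraries that share the same scaling. How many of all tested genes follow this mean as closely was not counted, so the relation is not shown to be particular to these 8. Pearson's r was 0.97 for Kcna4 (permutation p = 0.00049, adjusted over the 8 relations 0.00098), with Spearman's rho of 0.73 (permutation p = 0.0208, adjusted 0.0208). It was 0.94 for both Kcna6 (p = 0.00045, adjusted 0.00098) and Kcns3 (p = 6e-05, adjusted 0.00048) and 0.93 for Kcnab2 (p = 0.00032, adjusted 0.00098), by permutation. Their rho values were 0.84, 0.88 and 0.83, each with an adjusted permutation p of 0.00709. For Kcnab1, Kcns1, Kcna1 and Kcna2 r was 0.83, 0.82, 0.81 and 0.79, with permutation p-values of 0.00778, 0.00385, 0.00783 and 0.00684 and adjusted ones of 0.00783, 0.00616, 0.00783 and 0.00783. Their rho values of 0.81, 0.89, 0.84 and 0.78 had permutation p-values of 0.00716, 0.00116, 0.00382 and 0.0108, and adjusted ones of 0.00955, 0.00709, 0.00709 and 0.0124. Without PBS replicate 3 and SCN9A_2544 replicate 3, the farthest from the median, r stayed between 0.83 and 0.93 for Kcna4, Kcna6, Kcnab1, Kcnab2 and Kcns3. It was then 0.69 for Kcns1, 0.50 for Kcna2 and 0.44 for Kcna1. With PBS replicate 5 left out as well, a choice made after seeing the data, r over the remaining 7 libraries was 0.51 for Kcna4, 0.48 for Kcnab2, 0.62 for Kcna6, 0.73 for Kcnab1, 0.75 for Kcns1 and 0.53 for both Kcna1 and Kcna2. Of these 7 genes none then had a permutation p under 0.05, while Kcns3 did (r = 0.80, permutation p = 0.037), so for 7 of the 8 genes the relation did not pass without the 3 neuron-poor libraries.

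Slopes against the pan-neuronal mean ran from 0.44 to 1.34. A rise of 1 in the pan-neuronal mean on the log2 scale went with a rise of 0.44 in Kcna2, 0.58 in Kcna1, 0.78 in Kcnab1, 1.07 in Kcna6, 1.11 in Kcna4, 1.15 in Kcnab2, 1.19 in Kcns3 and 1.34 in Kcns1. The ratio of Kcna4 to Kcna2 within a library, which library scaling cannot move, rose with the pan-neuronal mean (r = 0.79, permutation p = 0.00741, adjusted over 4 ratios 0.0296). By rank this relation did not pass (rho = 0.60, permutation p = 0.0739, adjusted 0.148), and without the same 2 libraries r was 0.50. For the ratio of Kcna6 to Kcna2 r was 0.69 (permutation p = 0.0285, adjusted 0.057) and rho was 0.70 (permutation p = 0.0308, adjusted 0.123). The Kcna1 to Kcna2 ratio had r = 0.50 (permutation p = 0.138, adjusted 0.158) and rho = 0.32 (permutation p = 0.368, adjusted 0.368), and without those 2 libraries its r was -0.02. In neuron-poor libraries the Schwann cell and myelin mean was also highest, at 9.10 to 9.62 log2 CPM against 7.28 to 8.71 in the other 7, and its part in these ratios was not tested.

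**Figure D3:**
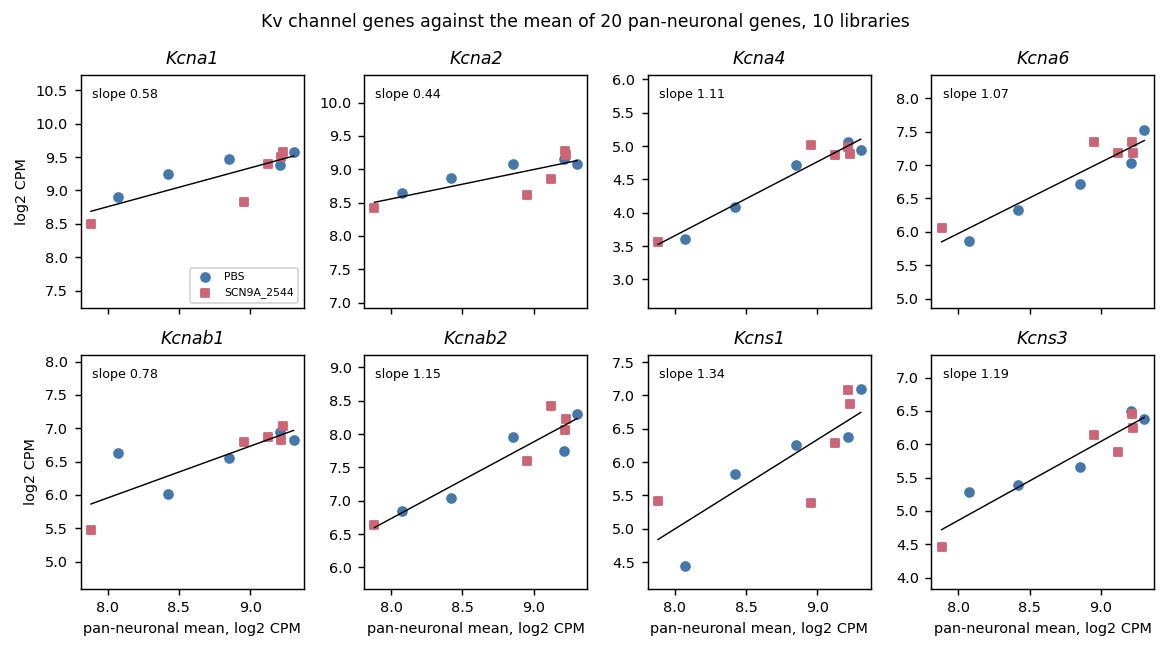
log2 CPM of each gene against the mean log2 CPM of 20 pan-neuronal genes, 1 point per library (PBS circles, SCN9A_2544 squares), with the least-squares line and its slope. All panels span the same height, and the lines of Kcna2 and Kcna1 are the flattest, with slopes of 0.44 and 0.58.

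Of the 28 pairs of genes, Kcna4 with Kcna6 and Kcna1 with Kcna2 had the highest r. Kcna1 and Kcna2 had r = 0.93 over the 10 libraries (permutation p = 0.0002, adjusted over 28 pairs 0.0028) and rho = 0.85 (permutation p = 0.00306, adjusted 0.0259), and r = 0.84 without the 2 libraries farthest from the median of Kcna1. After the pan-neuronal mean of each library was subtracted from both, their r was 0.90, while the same subtraction left 0.43 for Kcna4 with Kcna6 and -0.63 for Kcna1 with Kcna6. The subtracted mean is shared by both genes of a pair and contributes to these values. Kcna4 and Kcna6 had r = 0.95 (permutation p = 0.00034, adjusted 0.00317) and rho = 0.77 (permutation p = 0.0125, adjusted 0.0354), with r = 0.86 without the 2 libraries farthest from the median of Kcna4. Kcna1 and its chromosomal neighbour Kcna6 had a lower r of 0.63 (permutation p = 0.0424, adjusted 0.0456), with rho = 0.55 (permutation p = 0.105, adjusted 0.128) and r = 0.90 without the 2 libraries farthest from the median of Kcna1. The lowest r of all pairs was that of Kcnab1 with Kcns1, 0.44 (permutation p = 0.198, adjusted 0.198), with rho = 0.62 (permutation p = 0.0597, adjusted 0.0929) and r = 0.51 without the 2 libraries farthest from the median of Kcnab1.

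Ratios within a library set the subunits against each other between the groups, and 0 of the 4 ratios passed. The Kcna6 to Kcna2 ratio averaged -2.27 ± 0.47 on the log2 scale with PBS and -1.85 ± 0.42 with the siRNA (SD, 5 libraries per group), a difference of 0.42 with an exact permutation p = 0.175, or 0.508 adjusted over the 4 ratios. Without PBS replicate 4, whose ratio of -1.55 was the highest in PBS, the difference was 0.60 with an unadjusted exact permutation p = 0.0476. Without SCN9A_2544 replicate 4, whose ratio of -1.26 was the highest of all, it was 0.27 with an unadjusted exact permutation p = 0.349. Kcna4 to Kcna2 differed by 0.27 (exact permutation p = 0.365, adjusted 0.508), Kcna1 to Kcna2 by -0.06 (exact permutation p = 0.508, adjusted 0.508) and Kcnab1 to Kcnab2 by -0.21 (exact permutation p = 0.492, adjusted 0.508).

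Levels were also taken relative to the pan-neuronal mean of the same library. This subtraction assumes a slope of 1, while Kcna2 and Kcna1 had slopes of 0.44 and 0.58, so their relative levels fell as that mean rose. Kcna6 stood at -2.18, -2.13, -2.20, -1.78 and -2.09 in PBS replicates 1 to 5. Its treated replicates stood at -2.05, -1.87, -1.83, -1.60 and -1.95. All 5 treated libraries lay above 4 of the 5 PBS libraries, and PBS replicate 4 lay above 4 of the treated ones. The difference of 0.22 had an exact permutation p = 0.0952, unadjusted, the smallest of the 8 genes on this scale, with Kcna1 next at -0.26 (exact permutation p = 0.183).

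SCN9A_2544 replicate 4 held the lowest relative level of all 10 libraries for Kcna1 (-0.12) and Kcna2 (-0.34) and the highest for Kcna4 (-3.94) and Kcna6 (-1.60). Its relative level of Kcns1, -3.57, was the second lowest after that of PBS replicate 3, -3.62. The same library had the highest mean of 17 tested nerve injury genes, 5.50 log2 CPM, where the other treated libraries ran from 4.01 to 4.77 and the PBS libraries from 3.67 to 3.96. It also had the highest macrophage mean, 4.79, against 3.53 to 4.57 elsewhere, and the part of either in these levels was not tested. Of 22 injury genes listed, which summed to between 755 and 1005 CPM in PBS and between 942 and 2063 CPM in treated ganglia, Sprr1a, Crisp3, Cckbr and Il24 were at 0 in at least 1 library. The 20 macrophage markers summed to between 507 and 756 CPM in PBS and between 583 and 1318 CPM in treated ganglia, with 0 of them at 0 in any library. Across the 10 libraries the relative level of Kcna1 ran against the injury mean with r = -0.73 (permutation p = 0.015, adjusted over 8 relations 0.112) and rho = -0.64 (permutation p = 0.0543, adjusted 0.252), and Kcna2 with r = -0.67 (permutation p = 0.0281, adjusted 0.112) and rho = -0.61 (permutation p = 0.0665, adjusted 0.252). Kcna4 and Kcna6 had positive r of 0.61 (permutation p = 0.067, adjusted 0.15) and 0.58 (permutation p = 0.075, adjusted 0.15), with rho of 0.53 and 0.54. For Kcns1 r was -0.37 (permutation p = 0.291, adjusted 0.466) and rho 0.02, and for Kcnab1, Kcnab2 and Kcns3 r lay between 0.05 and 0.16. None of the 8 relations passed after adjustment. Without SCN9A_2544 replicates 4 and 5 r was -0.45 for Kcna1, -0.37 for Kcna2, 0.01 for Kcna4, 0.09 for Kcna6 and 0.34 for Kcns1. Every treated library had a higher injury mean than every PBS library, so these r values also hold the group difference. On deviations from group means, without a test, r was -0.66 for Kcna1, -0.67 for Kcna2, 0.64 for Kcna4 and 0.30 for Kcna6. It was 0.26 for Kcnab1, -0.0012 for Kcnab2, -0.63 for Kcns1 and 0.36 for Kcns3. Gap43 stands in both the injury and the pan-neuronal list.

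**Figure D4:**
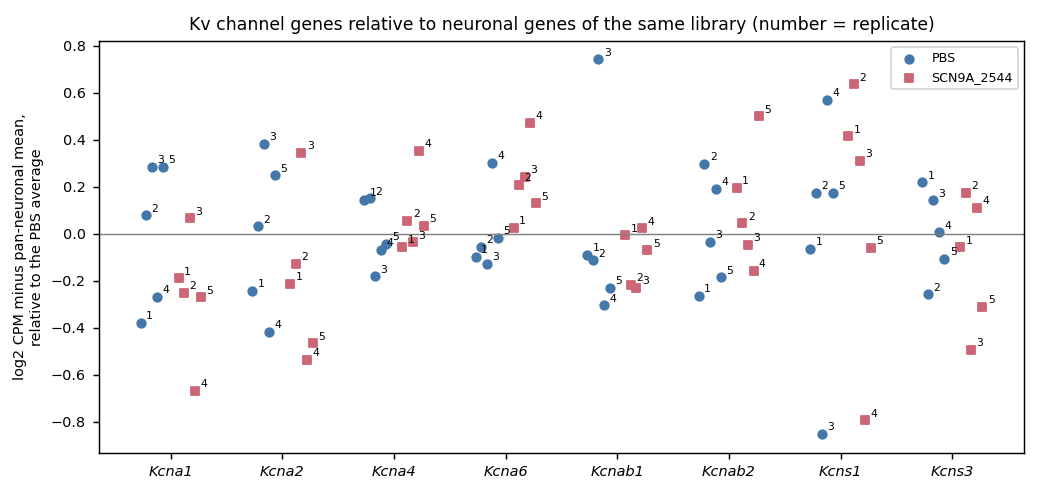
log2 CPM of each gene minus the pan-neuronal mean of its library, shown relative to the PBS average of that gene, 1 point per library with its replicate number (PBS circles, SCN9A_2544 squares). Treated replicate 4 is the lowest point for Kcna1 and Kcna2 and the highest for Kcna4 and Kcna6.

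Genes of related Kv channels and of Kv channel partners were taken from 3 lists and showed the same absence of calls. Of 13 other Kv1 and silent subunit genes 8 were tested, with 6 above and 2 below 0, a median log2 fold change of 0.19 and 0 past the threshold. Kcng1, encoding the silent subunit Kv6.1, had the smallest p of this list, with 21.2 CPM on average in PBS and 35.8 CPM in treated ganglia. Its values ran from 11.1 to 32.3 CPM in PBS and from 20.7 to 45.5 CPM under treatment, which overlap. The log2 fold change of Kcng1 was 0.76 (SE 0.28, unadjusted p = 0.0195, edgeR adjusted p = 0.963), and it was the 1 gene of the 40 tested in the 3 lists with an unadjusted p under 0.05, where 4.23% of all genes had one. Kcna5, encoding Kv1.5, had -0.46 (SE 0.23), Kcnab3, the remaining beta subunit, 0.93 (SE 0.48) at 1.07 and 2.03 CPM, and Kcnv1, encoding the silent subunit Kv8.1, 0.37 (SE 0.36).

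All 13 genes of Kv3 and Kv4 channels and their auxiliary subunits were tested, with 10 above and 3 below 0, a median of 0.10 and 0 past the threshold. Those with the smallest p were Kcnd3, encoding the A-type channel Kv4.3, at -0.28 (SE 0.24), the Kv3 genes Kcnc4 at 0.32 (SE 0.31) and Kcnc1 at 0.36 (SE 0.48), and Kcnip1, a calcium-binding partner of Kv4 channels, at -0.25 (SE 0.37). All 19 genes of partners that place or anchor Kv1 and Kv2 channels were tested too, with 14 above and 5 below 0, a median of 0.07 and 0 past the threshold. Among them Cntn2, encoding contactin-2, stood at 0.44 (SE 0.32), Adam11, a relative of the Lgi1 receptors Adam22 and Adam23, at 0.43 (SE 0.29), the scaffold gene Dlg1 at -0.26 (SE 0.22) and the secreted Lgi2 at 0.41 (SE 0.36). Cntnap2, encoding Caspr2, was at 0.04 (SE 0.35).

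**Figure D5:**
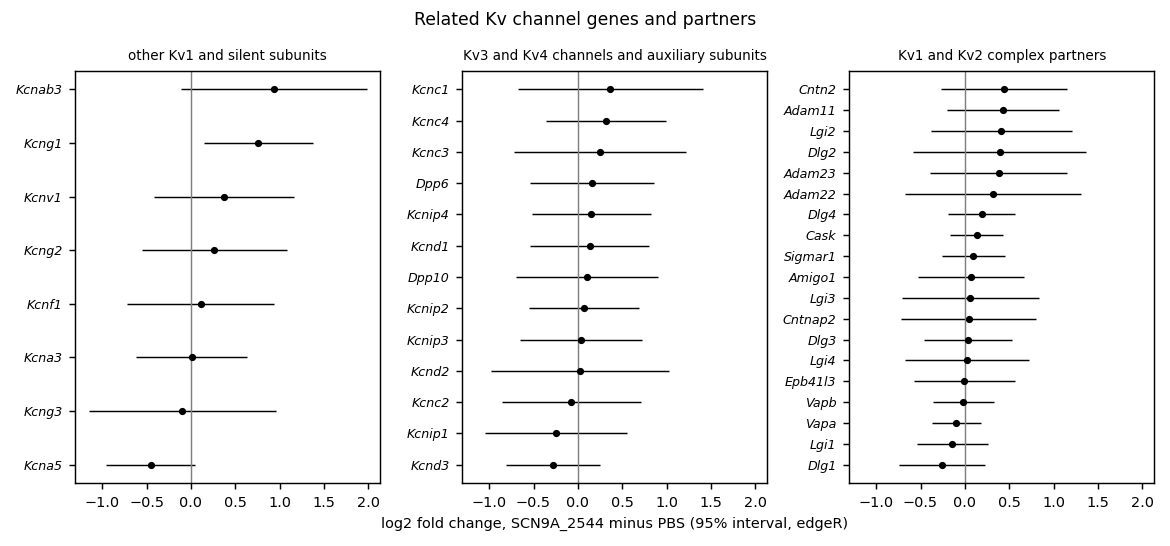
edgeR log2 fold changes (SCN9A_2544 minus PBS, points) with 95% intervals (bars) for the tested genes of the 3 related lists, ordered by value within each panel. The interval of Kcng1, from 0.15 to 1.37, is the 1 that does not cross 0.

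Among 13960 other tested genes with a symbol, those whose log2 CPM was most like that of each channel gene over the 10 libraries were found by Pearson's r, a choice of the highest values that allows no test. For Kcna1 they were Ndufa11, a subunit of respiratory complex I, Malsu1 and Rimkla (r from 0.96 to 0.97). For Kcna2 they were Dnajc22, Cntnap5b, of the Caspr family, and Mycbp2 (0.96 to 0.97). Kcna4 was most like AABR07026805.1, a clone-based name, Cdk14 and Nt5dc3 (0.98 to 0.99), and Kcna6 most like Disp2, the hexokinase gene Hk1 and Atp6v0a1, a subunit of the vacuolar proton pump (0.98 to 0.99). Kcnab1 was most like Rab9b, Lrrc4c and Sult2b1 (all 0.97), and Kcnab2 most like the neuronal RNA-binding gene Elavl3, which is itself in the pan-neuronal list, Rtn2 and Slc43a2 (0.98 to 0.99). Kcns1 was most like Pomgnt2, Chpf2 and Ccdc85c (0.98 to 0.99), and Kcns3 most like Slc3a1, Idh3b and Mctp2 (all 0.99). The 8 sets of 3 held 24 different genes.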

How the data were processed

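The authors deposited estimated counts in 1 table of raw values, 1 column for each of 10 libraries. The deposited counts of the 8 potassium channel genes lay within 0.001 of a whole number, while all 10 values of Scn9a held fractions. Build mRatBN7.2, STAR 2.7.10a and DESeq2 1.44.0 are listed, per the submitters' processing notes, without their roles. Neither the counting program nor its strand setting is stated in those notes or labels. Libraries were poly(A)-enriched and sequenced as read pairs, per the labels' protocols.

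The planned design allowed for raw counts, and the estimates were rounded to whole numbers. edgeR 4.0.16 in R 4.3.3 ran on all 10 libraries without a covariate: filterByExpr (minimum count 10, minimum total 15) kept 15186 of 30560 genes, then TMM scaling, the quasi-likelihood F-test and Benjamini-Hochberg adjustment over all of them (threshold 0.05). The SE is the log2 fold change divided by the square root of F, in absolute value. log2 CPM has a prior count of 2. Single values were compared by two-sided exact permutation over 252 splits, and relations across libraries with 1e+05 permutations. The code was tested on simulated data. The labels list separate samples without saying that each came from its own animal, and the p-values therefore cover only the spread among these samples, which may in part be technical. No pair of libraries agreed within sampling noise (chi-square per gene at least 6.34 over 45 pairs). Levels are not compared between genes, since transcript lengths were not used.

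The genes and lists were chosen with earlier results of these data known. The naming rule takes all 8 genes, the 4 smallest p of each related list and the 3 genes most like each, and Cntnap2 was named besides. An item of the related lists is not reported here, and it is in no list count, ratio or adjustment over ratios given. Alternatives were DESeq2 1.42.0, limma 3.58.1 voom with library weights, other scaling, no filter, a replicate block, composition covariates and leaving out libraries. Promoter windows are from RefSeq, build GRCr8, in which 7 of the 9 names matched (Kcna1 and Kcnb2 did not).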

Additional observations from a re-analysis of the deposited data

Results flagged for a closer look

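In each group of 5 libraries a value was singled out when its gap to the next library exceeded 0.71 of the group's range (Dixon's criterion). This was applied to 40 groups (8 genes on each of 2 scales and 4 ratios, in 2 treatment groups) and found 7. Chance flags about 1 in 20 single groups. The 40 groups share libraries and genes, so the 7 cannot be set against that rate. On the log2 CPM scale SCN9A_2544 replicate 3 lay far below the other treated libraries for 4 genes. It stood at 3.56 for Kcna4 (others 4.87 to 5.02), at 6.05 for Kcna6 (7.17 to 7.35), at 5.47 for Kcnab1 (6.80 to 7.04) and at 4.46 for Kcns3 (5.88 to 6.46). This is the library with the lowest pan-neuronal mean, 7.88, and none of its relative levels for these 4 genes was singled out.

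Relative to the pan-neuronal mean, SCN9A_2544 replicate 4 was high for Kcna4, at -3.94 against -4.35 to -4.23. PBS replicate 4 was high for Kcna6, at -1.78 against -2.20 to -2.09. PBS replicate 3, the library with the second lowest pan-neuronal mean, was high for Kcnab1, at -1.44 against -2.48 to -2.27.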

How the results depend on the processing

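The count of potassium channel genes called was 0 in all 19 alternatives. Over all genes the count of calls, 0, became 17 with DESeq2 and 1 with limma voom and library weights, with either composition covariate, and after dropping the 3 most neuron-poor libraries, and it ran from 0 to 1 with 1 library left out. At an unadjusted p under 0.05 the 642 genes ran from 385 to 1642 with 1 library left out and were 985 with no filter, 967 with DESeq2, 3175 with limma voom, 1443 with the pan-neuronal and 1318 with the Schwann cell and myelin covariate. The 8 genes gave 0 such values except 1 with limma voom, where 20.9% of all genes had one, namely Kcna6 (log2 fold change 0.52, adjusted p = 0.185, the lowest among its 19 alternatives).

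Replicate numbers are shared between the groups. Deviations of same-numbered libraries correlated at 0.38, 0.005, 0.57, -0.0063 and 0.051. Among the 5 libraries of the other group, 4 of 10 libraries correlated best with their own number. No chance level was computed for that count, so whether the numbers mark pairs is not settled. The main fit did not take them as pairs. With the replicate block 0 genes were called, 753 had an unadjusted p under 0.05, and Kcns3 turned to -0.0048.

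Signs near 0 turned often. With limma voom Kcna1 was 0.0011 and Kcna2 0.050. With the pan-neuronal covariate Kcnab1 was -0.087 and Kcns3 -0.13, and with the Schwann cell and myelin covariate -0.083 and -0.12. Without the 3 neuron-poor libraries, left out after seeing the data, Kcna4 was -0.0022, Kcns1 -0.11 and Kcns3 -0.055, and on log2 CPM Kcns1 was -0.17. With 1 library left out the edgeR values ran from -0.22 to -0.01 for Kcna1, -0.17 to 0.0016 for Kcna2, -0.00042 to 0.33 for Kcna4, 0.12 to 0.54 for Kcna6, -0.077 to 0.23 for Kcnab1, 0.07 to 0.44 for Kcnab2, -0.10 to 0.48 for Kcns1 and -0.11 to 0.23 for Kcns3. Differences on log2 CPM ran from -0.26 to 0.011 for Kcna1, -0.19 to 0.020 for Kcna2, -0.043 to 0.45 for Kcna4, -0.14 to 0.29 for Kcnab1 (-0.012 with DESeq2 size factors), -0.18 to 0.48 for Kcns1 and -0.16 to 0.34 for Kcns3. The Kcna6 to Kcna2 ratio ran from 0.27 to 0.60, and the Kcnab1 to Kcnab2 ratio was 0.031 without the neuron-poor libraries.

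Relations to the pan-neuronal mean rested in part on those 3 libraries. Without them, over 7 libraries, r was 0.53 for Kcna1, 0.53 for Kcna2, 0.51 for Kcna4, 0.62 for Kcna6, 0.73 for Kcnab1, 0.48 for Kcnab2 and 0.75 for Kcns1, none past a permutation p of 0.05, and only Kcns3 passed. With 1 library left out r of Kcnab1 ran from 0.68, without SCN9A_2544 replicate 3, where its permutation p missed 0.05, to 0.98. The cause of these shifts was not tested. The 2 planned ratios against Kcnb2 were not run, since it had no row.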
